A study of Mus musculus with 4 samples.

Results

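The variable (V) segments of the T cell receptor alpha chain were taken as all genes of the deposited feature list whose symbol begins with Trav, 128 of 31053 genes. They were followed in 4 mouse libraries of droplet single-cell RNA sequencing that reads the 5′ end of transcripts, the end that holds the V segment. Each library pooled pre-diabetic females of 1 group. The pancreas libraries held CD45+ leukocytes sorted by flow cytometry from 4 mice each at 12 weeks of age, and the pancreatic lymph node libraries held CD3+ T cells enriched magnetically from 5 mice each at 8 weeks. In each tissue the control library came from Ocabfl/fl mice and the other from Ocabfl/fl.CD4Cre mice. All animals thus carried the floxed allele of Ocab (Pou2af1), a transcriptional coactivator, and the groups differed in a Cre recombinase under Cd4 control, which acts in the precursors of both CD4 and CD8 T cells. The strain is not given in the sources used here, and the segments are those of the reference genome, whose copies may differ from the copies these mice carry.

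T cells assemble the alpha chain in the thymus by joining 1 Trav segment to 1 Traj segment in front of the constant gene Trac. The locus can rearrange repeatedly on both chromosomes, so a cell may carry more than 1 alpha transcript. The V segment encodes the loops that touch the MHC molecule, and CD4 and CD8 T cells, selected on different MHC classes, are known to use segments unequally. Some segments, marked dv in the symbol, can also be joined to delta chain segments in gamma delta T cells. Trav11 joined to Traj18 forms the alpha chain of invariant natural killer T (NKT) cells, Trav1 that of mucosal-associated invariant T (MAIT) cells. Trav16 is known from CD8 T cells against the islet protein G6pc2, and Trav5d-4 from CD4 T cells against insulin.

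A barcode was called T when it held at least 1 UMI (unique molecular identifier, 1 counted molecule) of Cd3d, Cd3e or Cd3g. It was assigned the Trav segment with the most UMIs, and ties were left without a segment. CD4-only barcodes held a Cd4 UMI and none of Cd8a or Cd8b1, CD8-only barcodes the reverse, and double-negative barcodes none of the 3 genes. In the order pancreas control, pancreas CD4-Cre, lymph node control and lymph node CD4-Cre, there were 2460, 4241, 2721 and 5228 T barcodes, from totals of 20807342, 32798133, 14851217 and 27830077 UMIs. Values given below as 4 in a row follow this order. Pou2af1 was detected in 2.68%, 1.53%, 2.32% and 0.0574% of T barcodes, lower in CD4-Cre in both tissues. In pancreas control and CD4-Cre it was 1.77% and 0.639% in CD4-only and 1.76% and 0.437% in CD8-only barcodes. Double-negative barcodes of the pancreas, at 3.74% and 3.43%, differed little. Between 21 and 70 barcode sequences were listed in both libraries of a pair of libraries. Each group is 1 library, so tests below treat libraries as replicates of a comparison made inside each of them, and no test was made between genotypes on shares. Their p-values measure the spread between these 4 libraries.

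The nearly identical copies are shown first, because reads from a shared stretch cannot be given to 1 of them. The sequences are the annotated V exons on GRCm38, all on the + strand of chromosome 14 and give the coding part from its 5′ end, up to 300 bases. Trav11 (chr14:53519569-53519859) and Trav11d (chr14:52824623-52824912), the NKT segments, differ only in 1 base at the 3′ end of the exon, in capitals.
Trav11: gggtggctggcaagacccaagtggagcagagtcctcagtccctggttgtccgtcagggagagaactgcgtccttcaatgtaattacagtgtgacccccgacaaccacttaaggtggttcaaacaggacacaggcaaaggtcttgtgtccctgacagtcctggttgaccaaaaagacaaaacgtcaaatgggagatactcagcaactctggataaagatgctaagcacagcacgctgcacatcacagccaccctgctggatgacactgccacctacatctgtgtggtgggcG
Trav11d: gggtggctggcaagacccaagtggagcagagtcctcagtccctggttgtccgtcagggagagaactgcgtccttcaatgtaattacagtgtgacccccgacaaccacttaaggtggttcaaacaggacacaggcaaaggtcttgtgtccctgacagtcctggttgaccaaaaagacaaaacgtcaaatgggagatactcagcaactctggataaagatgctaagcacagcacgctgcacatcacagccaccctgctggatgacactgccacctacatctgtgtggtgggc

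The 3 Trav16 copies are shown because they carry the largest CD8 bias by share described below. Capitals mark bases that differ from the copy compared, which is Trav16 for Trav16d-dv11 (chr14:53047521-53047820) and Trav16d-dv11 for Trav16n (chr14:53351318-53351617) and Trav16 (chr14:53743405-53743704). Trav16 and Trav16d-dv11 differ at 5 bases, and Trav16n differs from Trav16d-dv11 at 3 bases and by 3 added bases.
Trav16d-dv11: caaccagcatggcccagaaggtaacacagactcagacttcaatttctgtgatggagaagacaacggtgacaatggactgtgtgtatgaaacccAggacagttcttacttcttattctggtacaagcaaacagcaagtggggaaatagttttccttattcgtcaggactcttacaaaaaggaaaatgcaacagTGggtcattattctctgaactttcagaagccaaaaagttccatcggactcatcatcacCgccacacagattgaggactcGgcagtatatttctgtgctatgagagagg
Trav16n: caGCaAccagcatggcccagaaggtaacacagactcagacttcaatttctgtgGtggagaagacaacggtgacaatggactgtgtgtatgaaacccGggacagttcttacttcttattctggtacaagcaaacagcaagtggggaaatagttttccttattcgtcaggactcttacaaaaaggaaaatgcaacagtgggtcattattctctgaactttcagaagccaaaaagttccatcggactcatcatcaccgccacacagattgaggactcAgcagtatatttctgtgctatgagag
Trav16: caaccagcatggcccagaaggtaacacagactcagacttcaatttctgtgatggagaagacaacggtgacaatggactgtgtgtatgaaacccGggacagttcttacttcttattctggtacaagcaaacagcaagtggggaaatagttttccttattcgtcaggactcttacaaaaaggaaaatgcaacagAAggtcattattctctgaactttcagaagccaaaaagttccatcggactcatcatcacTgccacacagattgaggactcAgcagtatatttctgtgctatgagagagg

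Trav5-4, the segment with the most barcodes, is shown beside Trav5d-4, the copy known from insulin-reactive receptors. The exons of Trav5-4 (chr14:53704224-53704514) and Trav5d-4 (chr14:53001942-53002232) differ at 6 bases, in capitals. Counted from the first base of the exon, and with the base of Trav5d-4 first, they are T14C, C82G, G89A, A90G, C187T and G193A.
Trav5-4: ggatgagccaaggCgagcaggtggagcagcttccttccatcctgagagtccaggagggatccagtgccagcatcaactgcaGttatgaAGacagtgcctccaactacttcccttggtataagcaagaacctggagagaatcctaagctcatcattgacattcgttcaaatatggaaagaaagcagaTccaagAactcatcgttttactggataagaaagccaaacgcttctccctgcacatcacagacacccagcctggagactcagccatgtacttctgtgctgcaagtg
Trav5d-4: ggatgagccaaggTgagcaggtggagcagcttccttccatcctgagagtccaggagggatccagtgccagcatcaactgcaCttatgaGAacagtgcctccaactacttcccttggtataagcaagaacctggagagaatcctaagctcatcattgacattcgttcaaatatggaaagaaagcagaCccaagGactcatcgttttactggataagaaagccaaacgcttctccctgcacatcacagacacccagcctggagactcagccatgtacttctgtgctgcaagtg

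Trav15d-1-dv6d-1 (chr14:52863634-52863933) is shown because it led the double-negative barcodes of the pancreas, and capitals mark the 15 bases at which it and Trav15-1-dv6-1 (chr14:53559945-53560244) differ. Trav15n-1 is identical to Trav15d-1-dv6d-1 over their shared length, and only 6.69% of the 60-base windows of Trav15d-1-dv6d-1 are its own. Values given for Trav15d-1-dv6d-1 may thus include reads of Trav15n-1, which was assigned in 2 barcodes.
Trav15d-1-dv6d-1: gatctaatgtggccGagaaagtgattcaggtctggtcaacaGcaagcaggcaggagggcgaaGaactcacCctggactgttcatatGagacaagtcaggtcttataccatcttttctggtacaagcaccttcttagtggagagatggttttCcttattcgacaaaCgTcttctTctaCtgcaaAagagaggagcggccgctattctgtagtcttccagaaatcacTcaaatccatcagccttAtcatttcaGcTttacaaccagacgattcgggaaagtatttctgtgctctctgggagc
Trav15-1-dv6-1: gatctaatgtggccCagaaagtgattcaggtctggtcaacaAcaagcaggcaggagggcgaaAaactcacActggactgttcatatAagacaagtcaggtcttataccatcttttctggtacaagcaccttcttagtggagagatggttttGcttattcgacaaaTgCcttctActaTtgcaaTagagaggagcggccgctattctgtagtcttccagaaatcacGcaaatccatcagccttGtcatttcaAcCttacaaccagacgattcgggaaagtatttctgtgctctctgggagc

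The 128 segments lie in chr14:52427928-53977678 (GRCm38), form 23 numbered subfamilies and include 20 annotated pseudogenes. At least 1 UMI was counted for 90 of them, and 80 were the assigned segment of at least 1 T barcode. The locus holds duplicated blocks whose copies carry the letters d and n, and 30.9% of the 1452 tied barcodes had their leading segments in 1 subfamily. The most frequent ties were Trav10 with Trav10d (55 barcodes), Trav14d-3-dv8 with Trav14n-3 (44) and Trav9-1 with Trav9d-1 (42). Each segment's transcript was compared with all others in windows of 60 bases. The 60 segments with at least 50% of windows found in no other segment took 75.2% of assigned barcodes. The 27 with fewer took 24.6%, and the 41 with no window of their own took 0.219%. Of the 48 segments that were never assigned, 15 were pseudogenes and 27 were functional segments with no window of their own, while 6 functional segments had such windows. Trav5d-4 had no window of its own and was assigned in 1 barcode, so its level is uncertain. How reads that fit several copies were counted is not given in the sources used here.

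**Figure D1:**
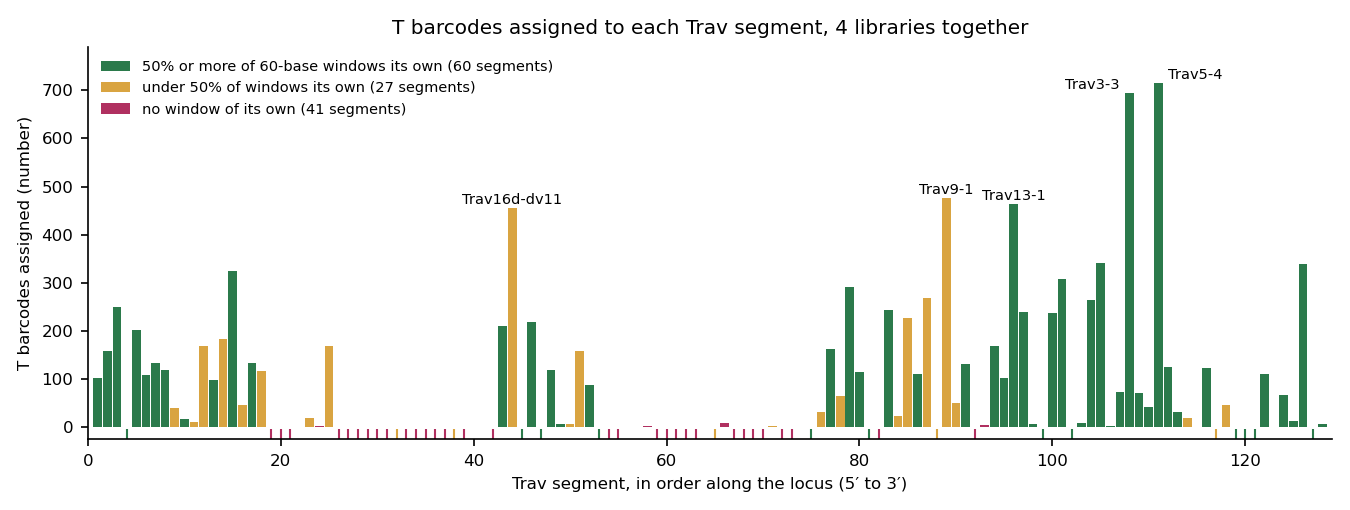
T barcodes assigned to each of the 128 Trav segments (bars, number over the 4 libraries), in order along the locus and coloured by the share of 60-base windows found in no other segment; ticks under the axis mark segments never assigned. Trav5-4 (716 barcodes) and Trav3-3 (695) lead, and segments with no window of their own reach at most 8 barcodes.

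A segment was assigned in 63.5%, 64.6%, 81.6% and 76.0% of T barcodes. Thinned to 1000 UMIs per barcode, the shares were 37.5%, 40.4%, 53.6% and 48.2%, with both lymph node libraries again above both pancreas libraries. As background, 0.448% of 893 B cell barcodes in the pancreas control library and 0.989% of 1314 in pancreas CD4-Cre were assigned a segment. The median B cell barcode there held 3558 and 3421.5 UMIs, and the median T barcode 3475 and 3575. Among double-negative barcodes the share was 51.8% and 52.8% in the pancreas and 80.6% and 70.9% in the lymph node. In the pancreas, 24.9% and 26.0% of double-negative barcodes held a UMI of the NK cell genes Ncr1 or Klre1, against 0% and 0.241% in the lymph node. The double-negative set also holds CD4 and CD8 T cells whose coreceptor RNA was not sampled.

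CD4-only barcodes used a broad and similar set of segments in all 4 libraries. Trav5-4 led each of them, with 57 of 645, 109 of 1428, 84 of 1030 and 155 of 2037 assigned barcodes, or 8.84%, 7.63%, 8.16% and 7.61%. Trav3-3 followed in every library with 8.06%, 5.74%, 7.09% and 6.43%. Trav13-1 took between 3.41% and 5.46%, Trav9-1 between 3.22% and 5.53%, Trav21-dv12 between 2.23% and 5.11%, and Trav4-3, Trav8d-1 and Trav4-2 between 2.55% and 3.99%. The effective number of segments, the number of equally used segments that would give the same evenness, was 31.9, 33.8, 31.4 and 33.3. The 8 leading segments together took 38.0%, 37.7%, 38.0% and 36.1%.

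CD8-only barcodes of the lymph node were close to CD4-only ones in evenness, and those of the pancreas were concentrated on fewer segments. The effective number was 30.3 and 31.9 in the lymph node, 17.3 in pancreas control and 24.7 in pancreas CD4-Cre. Trav16d-dv11 led by the mean of the libraries, with 54 of 334, 38 of 484, 48 of 583 and 84 of 1143 barcodes, or 16.2%, 7.85%, 8.23% and 7.35%. Pancreas control stood above the other 3 libraries. Trav3-3 took 5.69%, 8.68%, 7.89% and 8.40%, Trav9-1 between 2.89% and 6.17%, Trav5-4 between 3.31% and 4.97%, Trav13-1 between 2.99% and 4.20%, and Trav9-2 between 2.27% and 5.09%. A pair of segments was high in 1 library only. Trav13-2 was assigned in 12.6% of pancreas control and in 3.10%, 2.74% and 3.15% of the others, and Trav8n-2 in 11.6% of pancreas CD4-Cre and in 1.5%, 1.37% and 1.05% of pancreas control, lymph node control and lymph node CD4-Cre.

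Double-negative barcodes of the pancreas were led by a segment that the other subsets hardly used. Trav15d-1-dv6d-1 was assigned in 50 of 540 and 65 of 739 pancreas barcodes (9.26% and 8.80%), and in 7 of 500 and 9 of 589 lymph node barcodes (1.40% and 1.53%). It took between 0.299% and 0.858% of the CD4-only and CD8-only barcodes of each library. Trav13-2 followed the same tissue pattern, with 7.41% and 7.31% in the pancreas and 2.40% and 2.38% in the lymph node. Trav5-4 (6.28% to 7.80%) and Trav3-3 (4.63% to 6.28%) were similar across tissues. The tissues also differed in age and cell selection, which cannot be told apart from tissue here.

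**Figure D2:**
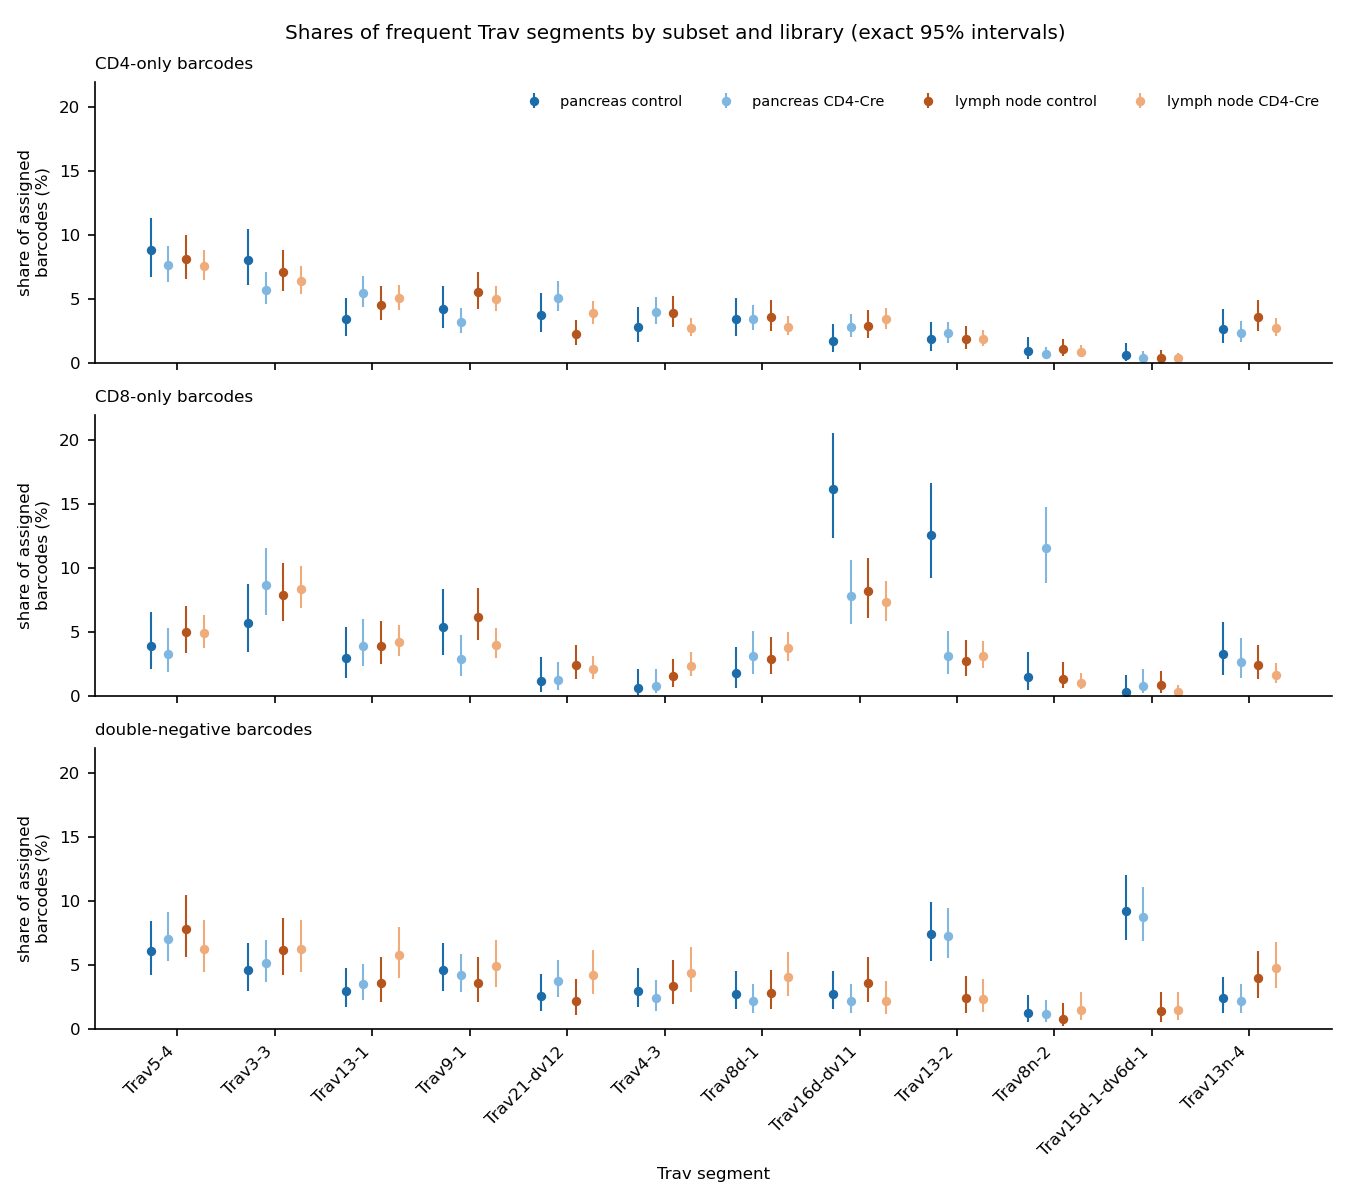
Share of assigned barcodes (%, exact 95% intervals for counting error) of the segments ranked in the first 7 of any subset, by library, in CD4-only (top), CD8-only (middle) and double-negative barcodes (bottom). Trav16d-dv11, Trav13-2 and Trav8n-2 depart from the other libraries in pancreas CD8-only barcodes, and Trav15d-1-dv6d-1 and Trav13-2 separate pancreas from lymph node among double-negative ones.

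CD8-only and CD4-only barcodes were then compared over all genes, with UMIs summed per library and subset and the library as a block in edgeR's quasi-likelihood test. Of the 128 segments, 56 passed the filter on low counts and 21 were called at a Benjamini-Hochberg adjusted p under 0.05, 4 higher in CD8-only and 17 higher in CD4-only barcodes. Over all 10218 genes tested, 11.7% were called, 5.89% higher and 5.82% lower in CD8-only barcodes. The sum of all Trav UMIs was itself lower in CD8-only barcodes of each library, at 723, 695, 937 and 771 CPM (UMIs scaled to equal totals) against 823, 863, 1332 and 1128 in CD4-only ones. The median log2 ratio was -0.61 over the 56 segments and -0.00 over all genes. The ratios had 1 direction in all 4 libraries for 20 of the 21 called segments, the exception being Trav16. The calls were made from these same libraries, so this is no separate evidence. As a share of assigned barcodes, which does not depend on the total, 11 of the 17 lower segments were lower in all 4 libraries, 4 in 3 libraries and 2 in fewer. Of the 4 higher ones, 3 were higher by share in all 4 and 1 in 3. Among all 56 segments tested, 13 were lower and 7 higher by share in all 4 libraries.

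The segments higher in CD8-only barcodes were Trav15-2-dv6-2 and the 3 copies of Trav16. Trav16d-dv11 was counted at 88.9, 55.1, 58.2 and 48.1 CPM in CD8-only barcodes and at 14.7, 23.4, 29.7 and 27.9 in CD4-only ones, without overlap. Its log2 difference was 1.35 ± 0.22 (SE, edgeR adjusted p = 0.0071). Trav16n reached 28.1, 16.1, 18.4 and 20.2 CPM against 6.97, 13.1, 10.8 and 9.87 (1.01 ± 0.22, edgeR adjusted p = 0.025). Trav16 was at 10.4, 14.2, 18.2 and 18.3 CPM against 10.4, 8.47, 10.3 and 8.85 (0.82 ± 0.18, edgeR adjusted p = 0.028), with no difference in pancreas control. Because the copies share reads, the subfamily was also summed: the 3 Trav16 segments took 19.8%, 11.4%, 11.5% and 11.0% of CD8-only and 3.72%, 4.41%, 3.98% and 4.76% of CD4-only barcodes. The intervals of the 2 subsets were apart in all 4 libraries. The calls of Trav16n and Trav16 were lost in 2 and 3 of the 4 fits that left out 1 library, while that of Trav16d-dv11 held in all 4 (adjusted p at most 0.027). In DESeq2 Trav16 was not called (0.76, adjusted p = 0.075).

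Trav15-2-dv6-2 was counted at 4.99, 3.62, 5.03 and 8.73 CPM in CD8-only and 1.34, 0.596, 1.94 and 1.19 in CD4-only barcodes (2.32 ± 0.33, edgeR adjusted p = 0.0040). It passed the filter on low counts through the CD8-only sums, where it was high. Its CD4-only values lay near or below the filter's limit, so its call carries that selection. Trdc, the constant gene of the delta chain, rose with it (1.15 ± 0.19, adjusted p = 0.0069). A UMI of Trdc or a gamma constant gene was held by 31.9%, 20.4%, 2.08% and 3.46% of CD8-only barcodes. Trdc itself was held by 5.95%, 4.08%, 0.972% and 1.80%, so in the pancreas most of these barcodes held gamma constant RNA without Trdc. With doublets kept, the difference of Trav15-2-dv6-2 was 1.83 (adjusted p = 0.064). Without the Trdc or gamma barcodes it was 1.08 (adjusted p = 0.11), and that of Trav16d-dv11 was 1.05 (adjusted p = 0.0030).

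The segments lower in CD8-only barcodes came from 8 subfamilies. Trav4-2 showed the largest difference, at 3.63, 1.11, 11.5 and 3.78 CPM in CD8-only against 20.9, 23.1, 36.2 and 29.6 in CD4-only barcodes (-2.48 ± 0.31, edgeR adjusted p = 0.0021). Its CD8-only value in pancreas CD4-Cre lay below the limit of the filter on low counts. It thus passed only with the CD4-only sums, where it was high, and its call carries that selection. Trav4d-2 (-1.79 ± 0.33) and Trav4-3 (-1.48 ± 0.26) had the same direction in all 4 libraries. The Trav4 subfamily took 1.5%, 1.03%, 2.92% and 3.59% of CD8-only and 6.82%, 7.77%, 6.99% and 5.99% of CD4-only barcodes, with intervals apart in all 4 libraries. Trav14n-3 (-1.66 ± 0.19) and Trav14d-3-dv8 (-1.60 ± 0.18) fell together, and their exons are among the copies tied most often. Trav5-4, which led the CD4-only barcodes, was counted at 20.9, 14.8, 38.8 and 31.4 CPM in CD8-only and at 66.7, 52.8, 81.2 and 72.4 in CD4-only barcodes (-1.30 ± 0.15, edgeR adjusted p = 0.0016). Among the segments named here, those lower in CD8-only barcodes remained called in each of the 4 fits that left out 1 library.

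**Figure D3:**
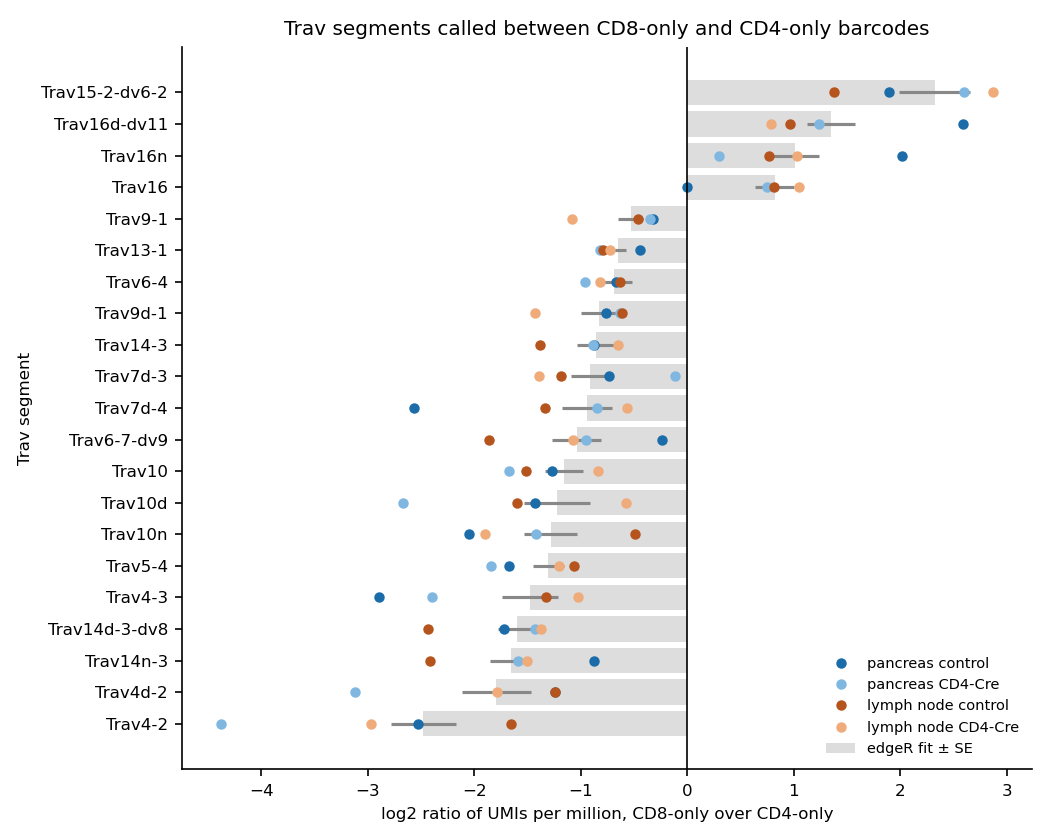
Log2 ratio of CPM, CD8-only over CD4-only, for the 21 Trav segments called between the subsets; points are the 4 libraries and bars the edgeR estimate with its standard error. Points lie on 1 side of 0 for each segment except Trav16, whose pancreas control value is -0.00.

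Among the receptor's other genes, 18 of a list of 22 chain, rearrangement and signalling genes were tested and 9 were called in the same fit. Over all genes tested in that fit, 11.7% were called, 5.89% higher and 5.82% lower in CD8-only barcodes. Trdc and Themis, needed for thymic selection, were higher in CD8-only barcodes (Themis 0.35 ± 0.06). Trat1, an adaptor bound to the receptor (-1.77 ± 0.07), the costimulatory receptor gene Cd28 (-1.02 ± 0.08) and the inhibitory receptor gene Cd5 (-0.78 ± 0.05) were lower. Lcp2, Cd247, Cd2 and Cd6 were lower by 0.25 to 0.34 on the log2 scale. Trac (-0.17 ± 0.05, edgeR adjusted p = 0.074) and Trbc1 (0.33 ± 0.10, adjusted p = 0.073) did not pass. Leaving out lymph node CD4-Cre left 4 of the 9 calls.

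The subset difference was also compared between tissues, with 2 libraries each. Of the 56 segments, 5 were called (8.93%), 1 higher and 4 lower in the pancreas, against 5.97% of all genes (2.64% higher and 3.33% lower) in edgeR's interaction test. Trav8n-2 was higher in CD8-only barcodes of the pancreas by 2.48 ± 0.53 more than in the lymph node (adjusted p = 0.016). That value rested on pancreas CD4-Cre, where CD8-only barcodes held 123 CPM against 13.6, 16.0 and 16.8 in pancreas control, lymph node control and lymph node CD4-Cre. Without 3 repeated receptor pairs described below it was 0.52 (edgeR adjusted p = 0.33). These pairs were chosen from the same data. Trav8n-2 with Trbv15 makes up 49 of the 56 Trav8n-2 CD8-only barcodes of pancreas CD4-Cre, so a fall was set by the choice. Trav4-3 (-1.55 ± 0.28), Trav5-1 (-1.47 ± 0.35) and Trav5-4 (-0.77 ± 0.15) were lower in pancreas CD8-only barcodes relative to CD4-only ones than in the lymph node. Trav4-4-dv10 had 0 UMIs in CD8-only barcodes of pancreas CD4-Cre, so its fitted value is no measure of size. DESeq2 called none of the 47 segments it adjusted, with 5 at an unadjusted p under 0.05. The same interaction with genotype called 0 of 56 segments and 0% of all genes in edgeR, with 11 segments at an unadjusted p under 0.05, and DESeq2 called 0 with 1 such segment.

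Genotypes were compared by shares within a tissue, with 1 library each and hence no test. In pancreas CD8-only barcodes, the exact intervals were apart for 3 of the 4 segments with at least 20 barcodes in the higher library. Trav8n-2 and Trav13-2 reached 20 barcodes only in the library where they were high, so this count carries that selection. Trav8n-2 was assigned in 5 of 334 control barcodes (1.5%, 0.488% to 3.46%) and 56 of 484 CD4-Cre barcodes (11.6%, 8.86% to 14.8%), a difference of 10.1 percentage points (Newcombe interval 6.86 to 13.3). The share of Trav16d-dv11 was 16.2% in control (interval 12.4% to 20.6%) against 7.85% in CD4-Cre (5.62% to 10.6%), or -8.32 points (-13.1 to -3.82). That of Trav13-2 was 12.6% in control (9.22% to 16.6%) against 3.10% in CD4-Cre (1.74% to 5.06%), or -9.48 points (-13.6 to -5.78). Counted as barcodes with any UMI of the gene, 3 of 13 Trav genes in these barcodes had intervals apart, against 4.48% of all genes. No segment was apart by share in pancreas CD4-only (of 22), pancreas double-negative (of 9), lymph node CD4-only (of 32), CD8-only (of 17) or double-negative barcodes (of 8). By any UMI, 4.03%, 6.8%, 14.9%, 6.94% and 5.66% of all genes were apart in those 5 sets, and 0 of 37, 0 of 23, 3 of 48, 2 of 35 and 2 of 24 Trav genes. Differences between mice are not part of these intervals, which reflect counting alone.

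The Trav13-2 difference moved with Trdc. Of the Trav13-2 barcodes among CD8-only T cells, 19 of 42 in pancreas control held a Trdc UMI (45.2%), against 1 of 15 in CD4-Cre. The share was 1.33% and 2.49% in barcodes of the segments left after Trav13-2, Trav1, Trav8n-2, Trav15d-1-dv6d-1, Trav15-2-dv6-2 and Trav16d-dv11 were set aside. Without barcodes that held a Trdc UMI, Trav13-2 took 7.42% and 3.0%, a difference of -4.42 points (-8.09 to -1.30) with single intervals that overlapped. Trav8n-2 and Trav16d-dv11 then differed by 9.95 and -8.96 points.

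Pairing with the beta chain was read from barcodes with both a top Trav and a top Trbv segment. The count of each pair was set beside the count expected if the segments were drawn independently. In pancreas CD8-only barcodes a few pairs exceeded it. Trav8n-2 with Trbv15 was found in 49 of 465 paired barcodes of CD4-Cre against 8.01 expected, which was 90.7% of the Trav8n-2 barcodes and 71.0% of the Trbv15 barcodes. It was found in 0 CD8-only barcodes of the other 3 libraries. Trav16d-dv11 with Trbv13-3 was found in 30 of 301 in pancreas control (8.12 expected) and 11 of 465 in pancreas CD4-Cre (3.34 expected). In the lymph node the pair had 5 barcodes in each library, against 4.22 and 5.99 expected. Trav13-2 with Trbv5 was found in 10 of 301 pancreas control barcodes (1.5 expected). The expected counts include the repeated barcodes themselves. Whether the barcodes of a pair come from 1 clone or 1 of the pooled mice was not tested.

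The repeated pairs of the pancreas lay in barcodes with high levels of effector genes, as did some other pancreas CD8-only barcodes. The effector T list of 10 genes, among them the granzymes Gzma, Gzmb and Gzmk, summed to 38692 CPM in the barcodes of Trav8n-2 with Trbv15 and to 10298 CPM in the other CD8-only barcodes of pancreas CD4-Cre. The chemokine receptor gene Cxcr6 was detected in 47 of 49 (95.9%) and 37.5%, Gzmk in 83.7% and 24.1%, and Ccr7, a homing receptor gene of naive T cells, in 10.2% and 54.1%. For Trav16d-dv11 with Trbv13-3 in pancreas control, the effector list summed to 33422 CPM against 19526 in other CD8-only barcodes, and in pancreas CD4-Cre to 20038 against 12193. In pancreas control Cxcr6 was detected in 90.0% and 49.5% of them, and Ccr7 in 0 of 30 and 30.9%. The same pair in the lymph node, with 5 barcodes in each library, had effector levels of 1210 and 1085 CPM, against 1136 and 1296 in the others. For Trav13-2 with Trbv5 in pancreas control (10 barcodes), the effector list was at 31069 against 20192 CPM. A naive T list of 7 genes, among them Ccr7, was at 1786 against 1641. Outside the pairs, the effector list reached 29730 CPM in 5 Trav8n-2 barcodes of pancreas control. It reached 44804 in 4 Trav15d-1-dv6d-1 barcodes of pancreas CD4-Cre, all CD8-only.

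**Figure D4:**
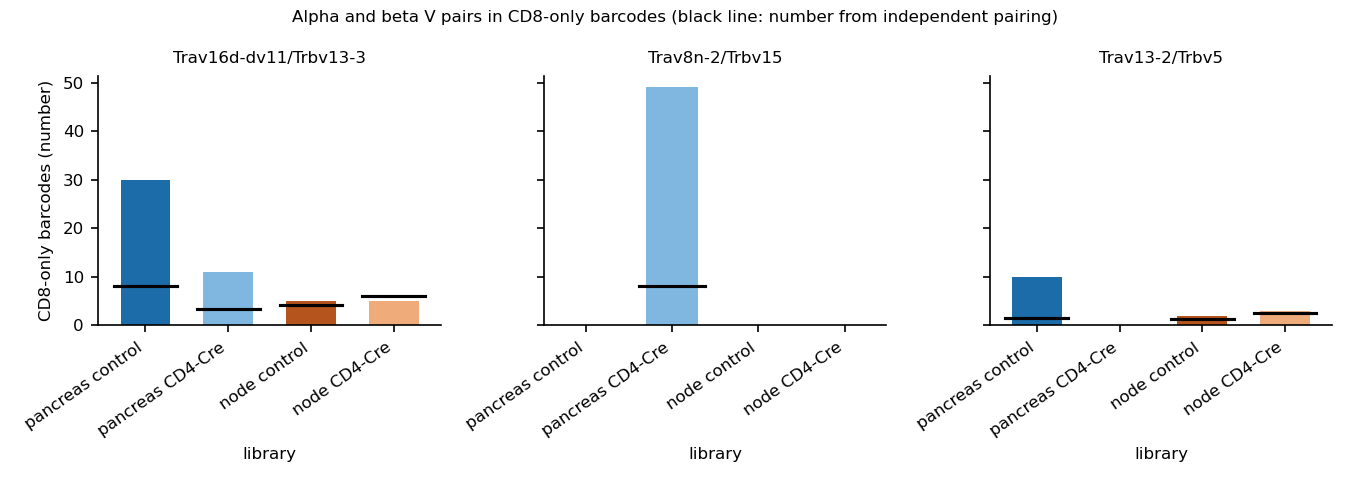
Number of CD8-only barcodes with each of 3 pairs of Trav and Trbv segments in the 4 libraries (bars), with the number expected from independent pairing (black lines, drawn where the pair was seen). Trav8n-2 with Trbv15 reaches 49 in pancreas CD4-Cre and 0 elsewhere, and Trav16d-dv11 with Trbv13-3 reaches 30 in pancreas control.

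Other pairs also exceeded the expected counts, by up to 10.02 barcodes. In CD4-only barcodes the largest excess was Trav13-1 with Trbv15 in pancreas CD4-Cre (16 against 5.98). Trav3-3 with Trbv15 and Trav5-4 with Trbv1 had 10 barcodes each in pancreas control, against 4.71 and 5.09. In the lymph node, Trav5-4 with Trbv5 had 25 against 15.2 and Trav9-1 with Trbv13-2 had 23 against 15.6 in CD4-Cre, and Trav3-3 with Trbv13-2 had 22 against 13.5 in control. Among lymph node CD8-only barcodes, Trav8d-1 with Trbv13-2 (11 against 5.55) and Trav16d-dv11 with Trbv16 (11 against 6.13) led in CD4-Cre, and Trav3-3 with Trbv13-2 (12 against 6.63) in control. Trav5-4 with Trbv13-2 led the double-negative barcodes of the pancreas (12 against 6.82 in CD4-Cre). No pair took more than 2.16% of the paired barcodes outside pancreas CD8-only ones, where the largest took 9.97% and 10.5%.

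Double-negative barcodes were compared with the mean of CD4-only and CD8-only barcodes over all genes. Of 58 segments tested, 6 were called, 2 higher and 4 lower, against 3.64% of all genes (2.75% higher and 0.886% lower). Trav15d-1-dv6d-1 was counted at 32.4, 25.0, 14.6 and 11.9 CPM in double-negative barcodes, and at no more than 9.46 CPM in any CD4-only or CD8-only set (2.21 ± 0.33, edgeR adjusted p = 0.0052). Trav15-2-dv6-2 was at 12.9, 16.5, 8.83 and 18.7 CPM, and at no more than 8.73 in the other subsets (2.43 ± 0.27, edgeR adjusted p = 0.00068). The 3 Trav16 copies were lower (-1.25 ± 0.27 for Trav16n, -1.21 ± 0.26 for Trav16 and -1.17 ± 0.26 for Trav16d-dv11), as was Trav12-1 (-1.12 ± 0.25). Trdc was higher by 2.70 ± 0.17, and Trat1 by 0.50 ± 0.11. The calls of both Trav15 segments held in each fit that left out 1 library, and those of the 4 lower segments were each lost in 3 or 4 of them. The fits without pancreas control, without pancreas CD4-Cre and without lymph node CD4-Cre called 2, 2 and 3 segments. Over all genes they called 189 of 10672, 120 of 10203 and 293 of 10554. Without barcodes that held Trdc or a gamma constant gene, 3 of 57 segments were called, all lower, against 500 of 10211 genes. Trav15d-1-dv6d-1 then stood at 1.21 (edgeR adjusted p = 0.093).

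In the pancreas, both higher Trav15 segments, and Trav13-2, were found mostly in barcodes with delta chain RNA. Trav13-2 was not called in the double-negative comparison (0.48 ± 0.38, edgeR adjusted p = 0.58), and in pancreas control its share was higher in CD8-only than in double-negative barcodes. Trdc was detected in 34 of 50 and 44 of 65 Trav15d-1-dv6d-1 barcodes (68.0% and 67.7%), 9 of 10 and 17 of 22 Trav15-2-dv6-2 barcodes, and 23 of 40 and 39 of 54 Trav13-2 barcodes (57.5% and 72.2%). The dv segments outside the Trav15 subfamily had 0 of 46 and 0 of 64. The comparison set, called the remaining segments below, leaves out Trav1, the Trav11 copies, Trav8n-2, Trav13-2, Trav15d-1-dv6d-1, Trav15-2-dv6-2 and Trav16d-dv11, keeps the other dv segments, and had 2.22% and 2.66%. Trav13-2 carries no dv in its symbol. Trgv2, a gamma V segment, was detected in 82.0% and 73.8% of Trav15d-1-dv6d-1 and in 52.5% and 59.3% of Trav13-2 barcodes, against 3.69% and 5.15% of the remaining segments. Trac was found in 14% and 15.4% of Trav15d-1-dv6d-1 barcodes against 67.0% and 53.5%, and no Trbv UMI in 50% and 55.4% against 5.91% and 7.28%. The gamma delta list of 8 genes summed to 1277 and 1012 CPM in Trav15d-1-dv6d-1, 775 and 1002 in Trav13-2, and 97.2 and 100.2 in the remaining segments. The list was also high in some CD8-only barcodes with little Trdc: it summed to 1174 CPM in Trav8n-2 barcodes of pancreas CD4-Cre, where 2 of 56 held Trdc, and to 669.9 CPM in Trav16d-dv11 barcodes of pancreas control, where 1 of 54 did. In lymph node double-negative barcodes, Trdc was held by 2 of 7 and 6 of 9 Trav15d-1-dv6d-1 barcodes and by 1 of 12 and 0 of 14 Trav13-2 barcodes.

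NK cell genes moved with the same segments. Ncr1, an activating receptor gene of NK cells, was detected in 84.0% and 75.4% of pancreas double-negative Trav15d-1-dv6d-1 barcodes and in 47.5% and 61.1% of Trav13-2 ones, against 3.2% and 4.09% of the remaining segments. The NK list of 5 genes summed to 3754 and 3458, 1343 and 2062, and 238 and 332 CPM in these groups. Without barcodes that held Ncr1 or Klre1, the double-negative difference of Trav15d-1-dv6d-1 was 1.77 (edgeR adjusted p = 0.0058). The B cell list stood at 3940 CPM in Trav15d-1-dv6d-1 barcodes of pancreas control and 179 in CD4-Cre, against 414 and 402 in the remaining segments. The myeloid list of 5 genes, which includes Fcer1g, summed to 2245 and 2400 CPM in Trav15d-1-dv6d-1 and 3992 and 2643 in Trav13-2, against 679.5 and 2747 in the remaining segments. The part of the B cell and myeloid genes in the result was not tested.

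**Figure D5:**
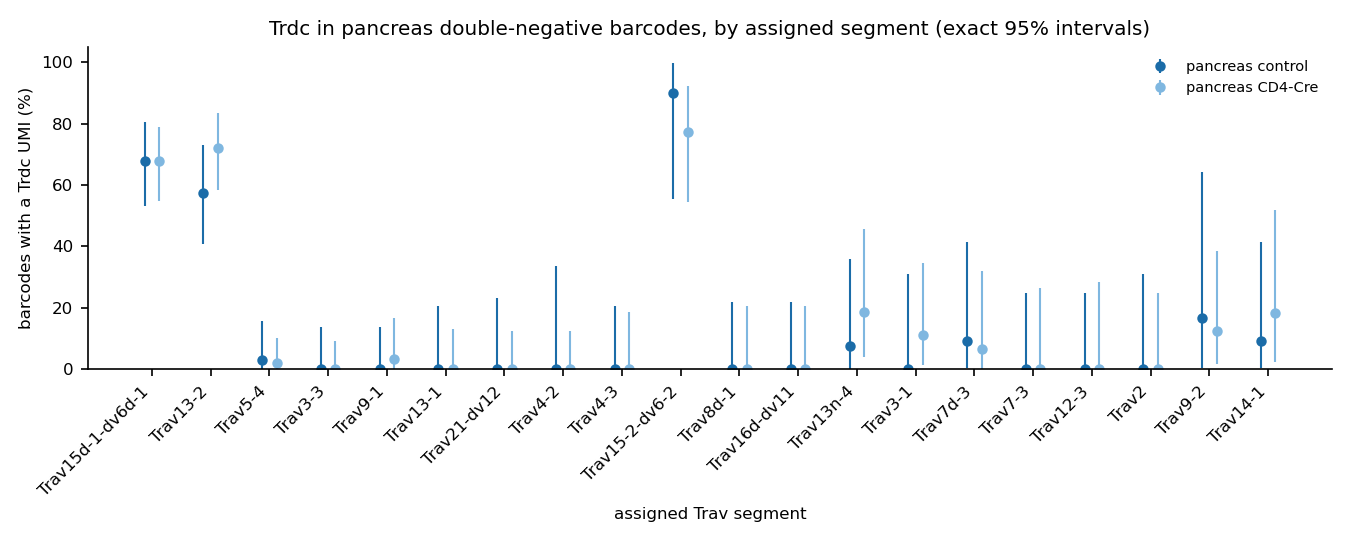
Share of pancreas double-negative barcodes with a Trdc UMI (%, exact 95% intervals) for the 20 segments with the most such barcodes, in control and CD4-Cre. Trav15d-1-dv6d-1, Trav13-2 and Trav15-2-dv6-2 stand between 57.5% and 90.0% and the other segments below 20%.

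Trav11, the NKT segment, was nearly absent from the counts. It was the top segment of 4 barcodes, all double-negative, 2 in each lymph node library and 1 UMI each. They were 0.400% of 500 and 0.340% of 589 assigned double-negative barcodes. In the pancreas there were 0 of 540 and 0 of 739, for which counting error alone gives upper limits of 0.556% and 0.406% of assigned barcodes. These do not limit the share of NKT receptors. Barcodes without a segment are left out, and reads that fit both Trav11 and Trav11d may be uncounted. Trav11d and Trav11n were assigned in none. Trav11 UMIs in T barcodes numbered 1, 2, 10 and 2, and were not confined to double-negative ones. In lymph node control, 6 UMIs lay in 4 CD4-only barcodes, 2 in 1 CD8-only barcode and 2 in 2 double-negative barcodes. Only the last were assigned Trav11. As shown above, Trav11 and Trav11d share their whole exon except 1 base, so reads of either cannot be placed. Of the 4 barcodes, 2 paired with Trbv13-1, 1 with Trbv29 and 1 with Trbv1. Of these, 1 held Zbtb16, the transcription factor gene of innate-like T cells, and 3 held Cxcr6. Zbtb16 was detected in 31, 41, 11 and 12 T barcodes, of which 67.7%, 48.8%, 27.3% and 66.7% had no Trav UMI at all, against 26.4%, 25.9%, 8.71% and 13.2% of other T barcodes. In the pancreas 18 and 21 of these Zbtb16 barcodes also held Trdc.

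Trav1, the MAIT segment, took 2.22%, 1.35%, 0.8% and 1.02% of double-negative barcodes, from 12, 10, 4 and 6 barcodes. In CD8-only barcodes it took 1.80%, 0.826%, 1.37% and 1.14%, and in CD4-only barcodes 0.388% to 0.980%. It was not called between CD8-only and CD4-only barcodes (0.20 ± 0.24, edgeR adjusted p = 0.66). The MAIT list of 10 genes summed to 578 and 1091 CPM in Trav1 double-negative barcodes of the pancreas, beside 813 and 937 in the remaining segments. The myeloid list stood at 13562 and 1955 CPM in these Trav1 barcodes against 679.5 and 2747, and the effector list at 8214 and 8685 against 2117 and 2351. Their part in the MAIT list values was not tested. Ncr1 was detected in 8 of 12 and 2 of 10 of them.

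A second alpha chain was read as 2 Trav segments of different subfamilies with at least 2 UMIs each. It was found in 204 of 2460, 347 of 4241, 539 of 2721 and 668 of 5228 T barcodes, or 8.29%, 8.18%, 19.8% and 12.8%. The lymph node libraries, which are deeper and hold more Trav UMIs per barcode (6.05 and 4.68 against 2.93 and 3.2), were higher than both pancreas libraries. Thinned to 2000 UMIs per barcode, the shares were 2.55%, 2.71%, 6.0% and 3.96%, in nearly the same order. By the same measure a second beta chain, which allelic exclusion restricts, was found in 9.39%, 10.3%, 19.4% and 14.3%, and thinned in 3.49%, 5.08%, 6.65% and 5.44%. The order of the chains depended on the denominator. Over all T barcodes the alpha share was below the beta share except in lymph node control, and after thinning it was below in all 4 libraries. Among only the barcodes with a segment of the chain at 2 or more UMIs, the dual share was 16.9%, 15.9%, 26.2% and 18.9% for alpha. For beta it was 12.9%, 13.1%, 20.3% and 15.2%, so by this denominator alpha was higher in all 4 libraries. Barcodes with 1 UMI of the chain are not in that denominator. Among barcodes marked as doublets and left out of all other values, 16.5%, 15.3%, 41.3% and 28.7% had a second alpha chain. Of the dual alpha barcodes, 23.0%, 21.6%, 24.7% and 18.6% also had a second beta chain. The part of unmarked doublets in these shares was not tested. Subfamilies were used because copies share reads: 31.9% of the 2580 barcodes with 2 segments at 2 or more UMIs had both in 1 subfamily, led by Trav10 with Trav10d (98), Trav8d-2 with Trav8n-2 (90) and Trav14d-3-dv8 with Trav14n-3 (89).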

How the data were processed

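The deposited values are counts of UMIs per gene and barcode. Per the submitters' processing notes they were made with Cell Ranger on mm10, and software version 3.0.0 is named per the file headers. The annotation used for counting and the rule for reads that fit several genes are not given in the sources used here. Barcodes with at least 500 genes and at most 10% mitochondrial UMIs were kept, after removal of the highest doublet scores at 0.8% per 1000 barcodes listed (2 simulated doublets per barcode, after Scrublet), which left 4004, 6238, 2843 and 5304. Barcodes with both coreceptors (60, 119, 131 and 268) entered only totals over T barcodes. Sums per library and subset were fitted over all genes with edgeR 4.0.16 (TMM, library as a block), with DESeq2 1.42.0 as an alternative, under R 4.3.3, and the fits were tested on simulated data. Shares have exact Clopper-Pearson 95% intervals, differences Newcombe intervals and sums Poisson intervals, all for counting error only. Upper limits for a count of 0 use 3 counts. Positions and V exons come from GENCODE M21 on GRCm38.

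Named segments were the 8 with the highest mean share per CD4-only and CD8-only set, the 6 largest called differences each way (4 for double-negative), the 2 largest changes each way between genotypes with intervals apart, Trav11, Trav11d, Trav1, Trav5d-4 and the Trav16 copies, and the 3 pairs per tissue and subset with the largest excess. Up to 4 segments called between tissues and the pathway genes called were named too. Tied copies, the fifth segment between tissues and pathway genes that did not pass were named after their values were seen. The members and lists were chosen with earlier results of these data known. The library block pairs subsets of 1 library, which come from the same mice.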

Additional observations from a re-analysis of the deposited data

Results flagged for a closer look

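The CD8-only against CD4-only difference of 5 segments differed between pancreas and lymph node in edgeR's interaction test, with 2 libraries per tissue. These were 8.93% of the 56 segments tested, against 5.97% of all genes in the same test. On the log2 scale, pancreas minus lymph node, the interaction was 2.48 for Trav8n-2, -0.77 for Trav5-4, -1.55 for Trav4-3, -1.47 for Trav5-1 and -3.83 for Trav4-4-dv10. Trav8n-2 was high in CD8-only barcodes of pancreas CD4-Cre and in no other library, and Trav4-4-dv10 had 0 UMIs there, so its fitted value depends on the prior count. DESeq2 called none of the other 4 and gave no adjusted p for Trav4-4-dv10. Tissue, age and cell selection cannot be told apart.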

How the results depend on the processing

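Without the library block, which pairs the subsets of 1 library, 2 segments were called between CD8-only and CD4-only barcodes in place of 21, and 1 in place of 6 for double-negative barcodes. Over all genes, 259 in place of 1197 of 10218 were called, and 5 in place of 378 of 10385 for double-negative barcodes. Fits that left out 1 library called 14 to 22 and 2 to 7, and 4 to 10 of the pathway genes, with 4 when lymph node CD4-Cre was left out. Over all genes they called 670 to 1061, of 9888 to 10601 tested, and 120 to 293, of 10203 to 10672. Of the 21 segments, 10 remained called in every such fit, and 2 of the 6. No filter on low counts raised the CD8-only calls to 31 and the tissue interaction calls from 5 to 13, and DESeq2 gave 0 for the latter. Over all 16887 genes without the filter, 1479 and 963 were called, and DESeq2 called 215 of 9029 for the interaction. Scaling by total UMIs without TMM gave 26 CD8-only calls, 4 higher and 22 lower. Over all 10218 genes it gave 439 higher and 719 lower. Leaving out barcodes with Trdc or a gamma constant gene, chosen after seeing the data, left 3 double-negative calls among 57 segments, against 500 among 10211 genes. So were leaving out 3 repeated pairs, barcodes with Ncr1 or Klre1, and pancreas CD8-only barcodes with Trdc, after which 2 segments had intervals apart. With a top segment of at least 2 UMIs, 1 pancreas double-negative segment differed between genotypes in place of 0, and Trav11 had 0 barcodes in place of 4 (1 without gamma delta barcodes). With both segments at 2 or more UMIs, Trav8n-2 with Trbv15 took 13.8% and Trav13-2 with Trbv5 1.44%. No paired analysis was possible between genotypes because each group is 1 library.

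Dual alpha shares were 25.0%, 26.5%, 47.7% and 38.3% at 1 UMI per segment, 3.33%, 3.65%, 10.9% and 5.91% at 3, 11.4%, 12.3%, 26.9% and 20.03% for any 2 segments, and 2.55%, 2.71%, 6.0% and 3.96% thinned. Keeping doublets gave 13.8% in lymph node CD4-Cre. The assigned share was 65.9% and 66.5% in the pancreas at 2 Cd3 UMIs, and 37.5%, 40.4%, 53.6% and 48.2% thinned. Over all settings run, the 21 CD8-only segments kept their call in 251 of 312 values and the 6 double-negative ones in 64 of 88, and no called direction reversed. The cause of these changes was not tested.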
